A study of Mus musculus with 6 samples.

Results

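Collagen transcripts were described by type in mouse hearts injured by ischemia-reperfusion (IR). The members are the probes of the deposited signal table whose platform gene symbol names a collagen chain, that is Col, a number, a and a number. This gave 91 of 45281 probes, which belong to 41 of the 19057 genes with a named probe. Col6a3, Col12a1 and Col20a1, which complete the 44 collagen chain genes of the RefSeq table, had no probe under these symbols and were not analysed here. The injured group was 3 arrays of hearts from male wild-type C57Bl6 mice whose left anterior descending coronary artery was occluded for 90 min and then reperfused for 72 h (3 days). The control group was 3 arrays of uninjured hearts of the same sex and strain. The labels state that these control mice had no surgery, whereas the column names of the signal table call them sham, and the sources used here do not settle which holds. All RNA came from whole tissue of the heart, on Illumina bead arrays, with no transgene or treatment shared by the groups. Nothing in the labels ties each array to its own animal, and the p-values therefore cover only array-to-array spread within a group, some or all of which may be technical. Array numbers are those of the signal columns: 106, 107 and 886 for IR hearts, and 109, 110 and 904 for uninjured hearts.

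Collagens are secreted matrix proteins built from chains that wind into a triple helix. Fibrillar collagens (types I, II, III, V, XI, XXIV and XXVII) form fibrils. In the heart's interstitium types I and III make up most of the load-bearing fibre network and type V nucleates fibrils. FACIT collagens lie on fibril surfaces, type IV forms the sheet of basement membranes around cardiomyocytes and vessels, type VI forms beaded microfibrils next to them, and types VIII and X form hexagonal networks. Multiplexins (types XV and XVIII) sit in the basement membrane zone. Fibroblasts are the main source of fibrillar collagen in the heart, and collagen deposited after infarction forms the scar that replaces lost muscle.

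At 72 h after IR the fibrillar genes Col1a1, Col1a2, Col3a1, Col5a1 and Col5a2 rose by 7.65-fold to 14.7-fold, while the bright type IV genes of basement membranes, Col4a1 and Col4a2, rose by 1.86-fold and 1.49-fold. The FACIT genes Col14a1 and Col16a1, the network gene Col8a1 and the multiplexins Col15a1 and Col18a1 rose by 2.61-fold to 6.30-fold. Col1a1, Col1a2, Col3a1 and Col5a1 stayed above these genes without background correction and in the authors' processed values, but Col5a2, at log2 fold changes of 1.69 and 1.67 there, lay below Col8a1 (2.41 in both), Col18a1 (2.17 in both) and Col16a1 (2.15 in both). Over all alternatives the lowest log2 fold changes were 3.01 for Col1a1, 3.15 for Col1a2, 3.27 for Col3a1 and 2.72 for Col5a1. Type VI rose by 1.75-fold and 2.27-fold. Of the 41 genes, 24 had a probe detected (detection p under 0.05) on at least 3 of the 6 arrays and were tested. Among these 24, 17 rose and 2 fell by limma at an adjusted p under 0.05, and 5 did not pass. The probes used for Col24a1, Col7a1 and Col8a2 passed the detection filter through IR arrays alone. That of Col4a4 passed through uninjured arrays alone. The direction of these genes was thus partly fixed by the filter, and their calls are weak support for it. Of all 10204 genes tested, 39.4% rose, 34.5% fell and 73.9% changed in either direction. The groups did not overlap in 19 of 24 collagen genes and in 76.7% of all genes, so separation of the groups is no mark of collagens. The median log2 fold change was 1.14 over the 24 collagens, against 0.05 over all genes. By at least 2-fold in the fit, 13 collagens rose, and 15.0% of all genes did. Of these 13, Col24a1 and Col8a2 rest on probes undetected on all uninjured arrays, and their lower bounds, explained with the genes, were 1.53-fold and 1.92-fold. With every array set to one median over all its probes the counts were 19 higher and 1 lower, and with one median over the kept probes they were 15 higher and 5 lower. These settings moved the median of all genes to 0.52 and -0.14.

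Upstream sequence is shown for Col1a2 and Col3a1 because these genes had near-equal increases, and for Col4a2 because it is read in the opposite direction from a start next to that of its partner chain Col4a1. Sequences are from RefSeq, build GRCm38.p6, written 5′ to 3′ on the strand of the gene. Capitals mark matches on either strand to a CCAAT box, to a TATA box spelled TATAAA, to the GC box motif spelled GGGCGG, or to an AP-1 motif spelled TGANTCA. The Col1a2 window is chr6:4505368-4505617 on the plus strand, the Col3a1 window is chr1:45311288-45311537 on the plus strand, each the 250 bases before the annotated start. The Col4a2 stretch is chr8:11312753-11312782 on the plus strand.
Col1a2: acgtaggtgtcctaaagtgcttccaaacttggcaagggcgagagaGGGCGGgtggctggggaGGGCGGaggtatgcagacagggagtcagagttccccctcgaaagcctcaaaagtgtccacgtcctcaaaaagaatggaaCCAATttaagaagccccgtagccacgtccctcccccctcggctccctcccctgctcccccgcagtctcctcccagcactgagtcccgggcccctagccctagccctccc
Col3a1: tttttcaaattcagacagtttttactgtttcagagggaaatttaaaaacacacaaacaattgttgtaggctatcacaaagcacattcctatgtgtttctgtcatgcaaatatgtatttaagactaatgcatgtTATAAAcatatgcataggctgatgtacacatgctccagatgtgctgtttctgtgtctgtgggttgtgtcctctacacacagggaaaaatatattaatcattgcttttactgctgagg
Col4a2: cgcgCCGCCCgaggagctccCCAATttgtt

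The Col1a2 window held GC boxes at -205 and -188 and a CCAAT box at -109, counted from the first base before the start as -1. The Col3a1 window held neither and had a TATA box at -117. In the Col4a2 stretch a GC box on the opposite strand at -48 is followed by a CCAAT box at -32. The annotated starts of Col4a1 and Col4a2 lie 21 bases apart on opposite strands of chromosome 8, and their windows of 250 bases before to 50 bases after the start share 78 bases. Promoter windows were found for 33 of the 41 genes. Col1a1, whose increase was nearest to that of Col1a2, had no window, nor had Col5a2 and Col14a1, which also rose. A GC box was present in 22 of these 33 genes (66.7%), against 35.7% of the 32851 windows of all genes. A GC box was found in 10 of the 14 genes with a window that rose (71.4%) and in 12 of the other 19 (63.2%). CCAAT boxes were found in 39.4% of the collagen genes and 37.4% of all windows, and TATA boxes in 15.2% and 13.6%. An AP-1 site was found in Col6a1 alone, against 7.81% of all windows. Where a gene had several windows, a match in any was counted. A match describes letters in the window and is neither a shown site nor a cause.

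Levels below are on the scale log2 of background-corrected intensity plus 16, and each level is that of a gene's brightest probe, so levels of different genes are not comparable. Fold changes on this scale understate the change of dim genes. The type I chains, which assemble with each other into the main fibre of scar, both rose. Col1a1 had log2 levels of 10.08, 10.10 and 10.09 on the IR arrays, against 6.02, 6.49 and 6.18 on the uninjured arrays. In the deposited signal this is 1315, 1341 and 1345 intensity units in IR hearts, against 116, 135 and 123 in uninjured hearts, with no overlap. The log2 fold change was 3.86 ± 0.12 (SE, n = 3 arrays per group; limma adjusted p = 2.43e-07), a 14.5-fold increase. Its partner Col1a2 had log2 levels of 10.33, 10.55 and 10.41 in IR hearts, against 6.47, 6.52 and 6.68 in uninjured hearts. It rose by 3.87 ± 0.09 (limma adjusted p = 1.21e-07), or 14.7-fold. Within arrays the change of Col1a1 minus that of Col1a2 was -0.01, with an SD of 0.10 over IR arrays and 0.25 over uninjured arrays, and these differences overlapped between groups (two-sided exact permutation p = 0.90). Among all 10204 genes ranked by log2 fold change, Col1a2 stood at 47 and Col1a1 at 48.

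Col3a1, the chain of the thinner, more compliant fibres, had log2 levels of 11.16, 11.20 and 11.28 in IR hearts, against 7.47, 7.70 and 7.44 in uninjured hearts. The groups lay far apart and the change was 3.68 ± 0.09 (limma adjusted p = 1.34e-07), or 12.8-fold. A second Col3a1 probe gave 3.56. Within arrays, Col1a1 changed by 0.18 more than Col3a1, and the differences did not overlap between groups (SD 0.06 over IR and 0.12 over uninjured arrays). The smallest p that an exact permutation test of 3 against 3 can give is 0.10, and this pair reached it (adjusted p = 0.15 over the 6 pairs of chains compared). The order of Col1a1 above Col3a1 was not kept in every alternative. Over the alternatives the lowest log2 fold change was 3.01 for Col1a1 and 3.27 for Col3a1.

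Type V, which is incorporated in type I fibrils and limits their diameter, was divided by chain. Col5a1 stood at log2 levels of 11.74, 11.70 and 11.82 in IR hearts, against 8.72, 8.93 and 8.80 in uninjured hearts, a change of 2.93 ± 0.08 (limma adjusted p = 1.66e-07). Col5a2 levels were 7.78, 7.89 and 8.01 in IR hearts, against 4.67, 5.16 and 4.52 in uninjured hearts, where a probe was detected on 1 of 3 arrays. It rose by 3.11 ± 0.17 (limma adjusted p = 2.25e-06). This value was 1.69 without background correction, 1.67 with the authors' processed values, and 1.96 on the second kept probe, which was undetected on all uninjured arrays. The within-array difference of Col5a1 and Col5a2 was -0.17 and overlapped between groups (two-sided exact permutation p = 0.40, adjusted p = 0.48). This does not show equal increases, since Col5a2 lay near background in uninjured hearts. Col5a1 did not fall below 2.72 in any alternative, so without background correction Col5a2 rose less than Col5a1. Col5a3, the third type V chain, did not pass, with levels of 4.86, 4.68 and 4.86 in IR hearts, against 5.41, 4.73 and 4.79 in uninjured hearts (log2 fold change -0.17 ± 0.18, limma adjusted p = 0.406). Its sign turned without uninjured array 109 (0.042) and with all-probe median scaling (0.057), and under scaling to the kept probes it was called lower at -0.60 (limma adjusted p = 0.00702, alternatives 0.00702 to 0.735).

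The other fibrillar genes lay near background. Col24a1, whose chain is known from developing bone and cornea, was undetected on all uninjured arrays and detected on all 3 IR arrays. Its levels were 5.25, 5.47 and 5.52 in IR hearts, against 4.35, 4.24 and 4.33 in uninjured hearts. Against the lowest value of a detected probe on this background-corrected scale it was at least 1.53-fold higher (limma adjusted p = 1.95e-05). For this bound each uninjured array was given that lowest value or the probe's own level, whichever was larger, before averaging. The bound holds for that scale alone: the log2 fold change was 1.11 ± 0.09 in the fit and 0.45 without background correction, as in the authors' processed values. Col27a1, a cartilage-associated fibrillar gene, had levels of 5.08, 4.82 and 5.30 in IR hearts and 5.11, 4.67 and 4.53 in uninjured hearts, which overlap. It did not pass at 0.30 ± 0.18 (limma adjusted p = 0.169), but a second probe gave 0.67 and the mean of its probes 0.48 (limma adjusted p = 0.00375, within 0.00375 to 0.788 over the alternatives). It passed without uninjured array 109 at 0.46 (limma adjusted p = 0.0276) and under scaling to all probes at 0.52 (limma adjusted p = 0.00946), while under scaling to the kept probes it turned to -0.14.

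Col11a2, a cartilage chain that helps nucleate type II fibrils, was 1 of the 2 collagens called lower. Its log2 levels were 5.08, 4.79 and 4.55 in IR hearts, against 5.40, 5.38 and 5.13 in uninjured hearts, a change of -0.50 ± 0.15 (limma adjusted p = 0.0168). In the deposited signal before normalization the groups overlapped, with 107, 101 and 92.6 in IR hearts and 101, 99.0 and 97.2 in uninjured hearts. IR arrays were brighter as a whole in that signal. The 75th percentile of all probes was 135 to 138 intensity units on IR arrays, against 109 to 111 on uninjured arrays. The call was lost without IR array 107 (-0.49, limma adjusted p = 0.0518) and with all-probe median scaling (-0.19, limma adjusted p = 0.320, alternatives 0.00166 to 0.320). Omitting background correction gave -0.17, and kept-probe median scaling gave -0.85. Col2a1 and Col11a1, the other cartilage fibrillar chains, were not tested, each being detected on at most 1 array of a group.

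**Figure D1:**
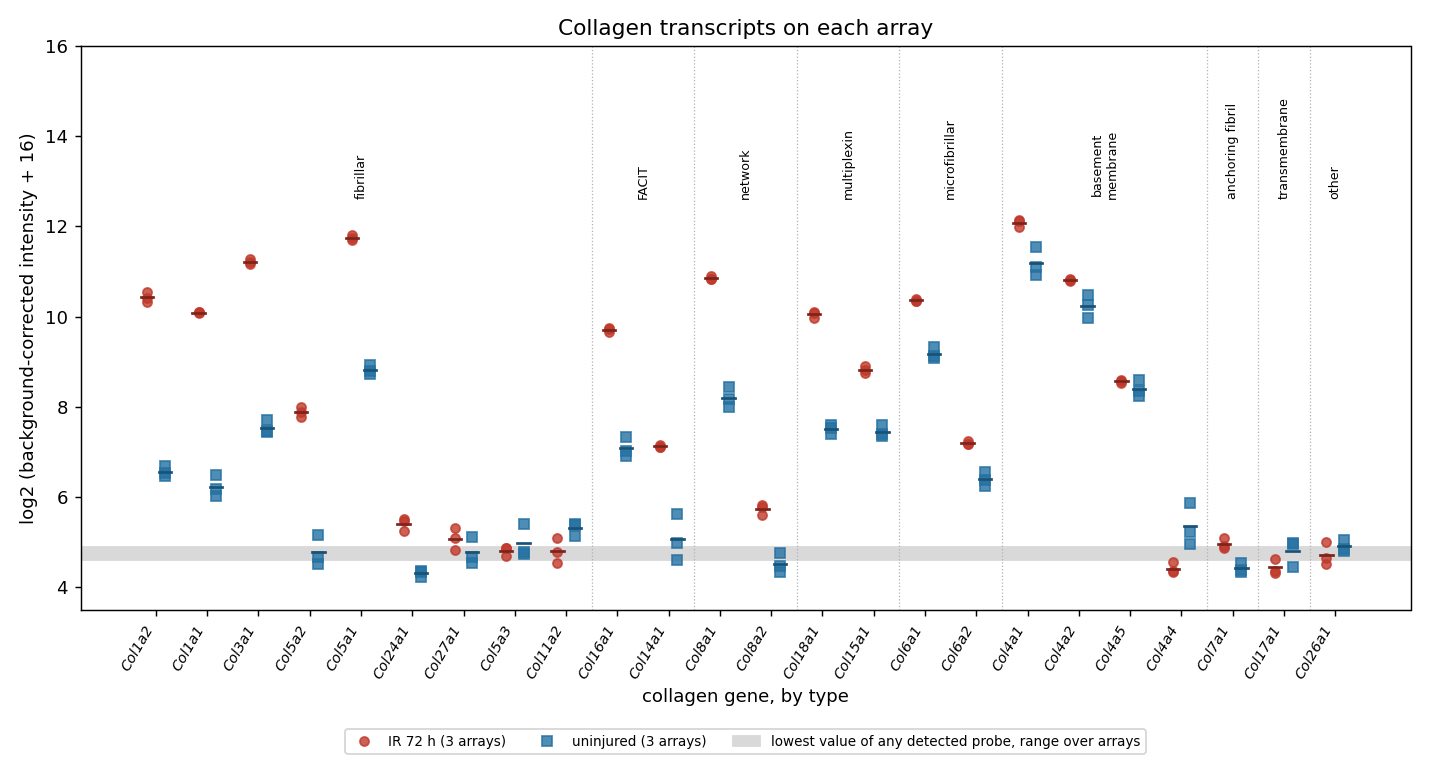
Log2 of background-corrected intensity plus 16 for the 24 tested collagen genes, grouped by type, with IR arrays (circles) left of uninjured arrays (squares), 3 each, bars at the group means and a grey band at the lowest value of any detected probe. Col1a1, Col1a2 and Col3a1 separate widely, while Col5a3, Col27a1 and Col26a1 overlap near the band.

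The FACIT collagens, which coat fibrils and link them to other matrix, were measured through 2 of 7 genes with a probe, and both rose. Col16a1 levels were 9.66, 9.72 and 9.75 in IR hearts, against 6.91, 7.32 and 7.01 in uninjured hearts (log2 fold change 2.63 ± 0.11, limma adjusted p = 7.90e-07). Col14a1, which regulates fibril growth in skin and tendon, had levels of 7.10, 7.10 and 7.15 in IR hearts, against 4.98, 5.61 and 4.61 in uninjured hearts, where it was detected on 2 of 3 arrays. The groups did not overlap, although the uninjured arrays spread widely (SD 0.51, against 0.03 in IR hearts). Col14a1 rose by 2.05 ± 0.23 (limma adjusted p = 0.000118), or 1.03 without background correction and 1.02 with the authors' processed values. The type IX genes Col9a1, Col9a2 and Col9a3, as well as Col19a1 and Col22a1, had no kept probe.

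Network collagens of type VIII, made by vascular and mesenchymal cells, were read by probes of very different brightness. Col8a1 had levels of 10.82, 10.91 and 10.83 in IR hearts, against 8.17, 8.43 and 7.99 in uninjured hearts, and rose by 2.66 ± 0.11 (limma adjusted p = 8.63e-07), with 2.98 on a second probe. Col8a2 stood at 5.59, 5.82 and 5.78 in IR hearts, against 4.34, 4.47 and 4.77 in uninjured hearts, where the probe used was undetected on all 3 arrays and another on all but 1. By the bound used for Col24a1 it was at least 1.92-fold higher (limma adjusted p = 7.50e-05), with a fitted log2 fold change of 1.21 ± 0.12. Its second kept probe showed a change of 0.09 that did not pass (limma adjusted p = 0.661), the mean of its probes was 0.65, and the value was 0.46 without background correction and 0.45 with the authors' values. The difference between the type VIII chains, 1 of the 6 pairs compared, is not given, since the Col8a2 probe was not above background in uninjured hearts. Both type VIII windows held 4 GC boxes. Col10a1, a network chain of growth plate cartilage, had no kept probe.

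Among the multiplexins, Col18a1, the source of the fragment endostatin, had levels of 10.10, 9.97 and 10.09 in IR hearts, against 7.40, 7.60 and 7.53 in uninjured hearts, a change of 2.54 ± 0.08 (limma adjusted p = 2.67e-07). A second Col18a1 probe, undetected on all uninjured arrays, gave 1.14. The gene makes transcripts from separate starts, and which of them each probe reads was not analysed here. Col15a1, which anchors basement membranes to the interstitium in muscle and capillaries, had levels of 8.81, 8.91 and 8.76 in IR hearts, against 7.39, 7.59 and 7.35 in uninjured hearts. It rose by 1.38 ± 0.09 (limma adjusted p = 5.45e-06), less than Col18a1 and with no overlap between the groups.

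The microfibrillar type VI chains, which assemble into beaded filaments, rose modestly. Col6a1 levels were 10.39, 10.35 and 10.34 in IR hearts, against 9.12, 9.33 and 9.09 in uninjured hearts (log2 fold change 1.18 ± 0.08, limma adjusted p = 9.74e-06). Its other kept probes gave 1.39 and 0.49, the dimmest not passing (limma adjusted p = 0.113). Col6a2 stood at 7.18, 7.17 and 7.24 in IR hearts, against 6.24, 6.55 and 6.38 in uninjured hearts (0.80 ± 0.09, limma adjusted p = 0.000132), with 1.31 on its second probe and 0.50 without background correction. The brightest probes thus placed Col6a1 above Col6a2 by 0.38 within arrays (two-sided exact permutation p = 0.10, adjusted p = 0.15), but the second Col6a2 probe was above the brightest Col6a1 probe. Col6a4, Col6a5 and Col6a6 were undetected on all 6 arrays.

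The type IV chains of basement membranes divided into the ubiquitous pair and the tissue-restricted chains. Col4a1 had log2 levels of 12.15, 11.98 and 12.11 in IR hearts, against 11.09, 11.54 and 10.93 in uninjured hearts, and rose by 0.89 ± 0.15 (limma adjusted p = 0.00126). Col4a2, its partner in the ubiquitous triple helix and its neighbour across the start region shown above, stood at 10.83, 10.82 and 10.79 in IR hearts, against 10.26, 10.48 and 9.98 in uninjured hearts. It rose by 0.57 ± 0.13 (limma adjusted p = 0.00441), and at 0.29 did not pass under scaling to the kept probes (limma adjusted p = 0.0648, within 9.37e-05 to 0.0648 over the alternatives). For both genes the groups did not overlap, and the highest uninjured array was 110. Col4a1 changed by 0.32 more than Col4a2 within arrays (SD 0.09 over IR and 0.11 over uninjured arrays), without overlap (two-sided exact permutation p = 0.10, adjusted p = 0.15). On the scale without background correction the values were 0.87 and 0.55, so these bright genes were moved little by that step.

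Col4a5, on the X chromosome, had overlapping levels of 8.58, 8.59 and 8.52 in IR hearts and 8.24, 8.59 and 8.35 in uninjured hearts (0.17 ± 0.10, limma adjusted p = 0.159). It passed without uninjured array 110 (0.27, limma adjusted p = 0.0150), by the mean of its probes (0.31, limma adjusted p = 0.00931) and under scaling to all probes (0.77, limma adjusted p = 0.000274, within 0.000274 to 0.412 over the alternatives). Its second probe gave 0.45. Col4a4, a chain best known from the glomerular basement membrane, was the second collagen called lower. It was detected on all 3 uninjured arrays and on no IR array, with levels of 4.33, 4.35 and 4.56 in IR hearts, against 5.23, 5.87 and 4.95 in uninjured hearts. On the background-corrected scale, against the lowest detected value, it was at least 1.63-fold lower (limma adjusted p = 0.00612), a bound for that scale alone. The fitted log2 fold change was -0.94 ± 0.22, and without background correction it was -0.36, a smaller change than the bound. The Col4a4 probe passed the filter through uninjured arrays alone, so its direction was partly fixed by the filter. Col4a3 and Col4a6 were undetected on all 6 arrays.

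**Figure D2:**
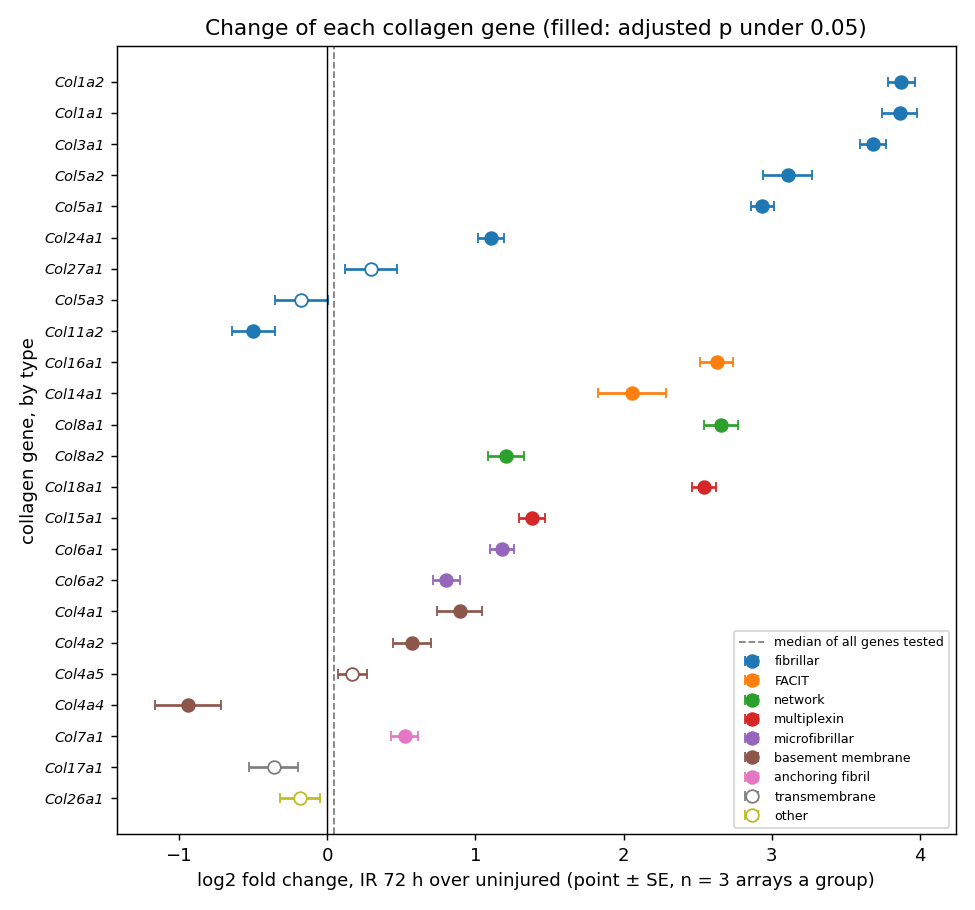
Log2 fold change of IR over uninjured hearts (x axis) for each tested collagen gene (y axis), as points with SE (n = 3 arrays per group), coloured by type and filled where the limma adjusted p was under 0.05. Col1a2, Col1a1 and Col3a1 lie at 3.68 to 3.87, and Col4a1, Col4a2, Col4a5 and Col4a4 at -0.94 to 0.89. The dashed line is the median of all genes, 0.05.

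The remaining types were dim. Col7a1, the anchoring fibril collagen of skin, was undetected in uninjured hearts, with levels of 5.09, 4.90 and 4.86 in IR hearts, against 4.38, 4.55 and 4.35 in uninjured hearts. By the same bound it was at least 1.11-fold higher (limma adjusted p = 0.00131), with fitted log2 fold changes of 0.53 ± 0.09 and, without background correction, 0.20, a direction that turned to -0.023 under scaling to the kept probes. The Col7a1 probe passed the filter through IR arrays alone, so its direction was partly fixed by the filter. Col17a1, a transmembrane hemidesmosome collagen, had levels of 4.36, 4.32 and 4.63 in IR hearts and 4.97, 4.44 and 4.98 in uninjured hearts (-0.36 ± 0.16, limma adjusted p = 0.0830). It was called lower without uninjured array 110 (-0.54, limma adjusted p = 0.00481) and under scaling to the kept probes (-0.90, limma adjusted p = 0.00168, within 0.00168 to 0.214 over the alternatives). Col26a1 had overlapping levels of 5.0, 4.65 and 4.52 in IR hearts and 4.80, 5.06 and 4.85 in uninjured hearts (-0.18 ± 0.13, limma adjusted p = 0.260). It was called lower without IR array 106 (-0.32, limma adjusted p = 0.0403) and under scaling to the kept probes (-0.66, limma adjusted p = 0.00431, within 0.00431 to 0.996 over the alternatives).

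The 17 genes without a kept probe were Col2a1, Col11a1, Col4a3, Col4a6, Col9a1, Col9a2, Col9a3, Col19a1, Col22a1, Col10a1, Col6a4, Col6a5, Col6a6, Col13a1, Col23a1, Col25a1 and Col28a1. Of them 12 were detected on no array. Their 39 probes had signals of 77.9 to 99.8 intensity units in IR hearts and 69.2 to 119 in uninjured hearts. Col25a1, a transmembrane collagen, was detected on the most arrays, 2 of IR hearts and 1 of uninjured hearts. A transcript below the detection level of these arrays is not shown to be absent.

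Side by side, the fibrillar genes had 6 of 9 tested members higher, 1 lower and a median log2 fold change of 2.93, and their range of -0.50 to 3.87 was the widest of any type. FACIT genes had 2 of 2 higher at a median of 2.34, network genes 2 of 2 at 1.93, multiplexins 2 of 2 at 1.96 and type VI genes 2 of 2 at 0.99. Type IV genes had 2 of 4 higher and 1 lower at a median of 0.37. On each array the median shift over a type's genes was 2.88 to 3.00 in IR hearts against -0.10 to 0.08 in uninjured hearts for fibrillar genes. For type IV genes it was 0.34 to 0.39 in IR hearts against -0.26 to 0.30 in uninjured hearts, so the groups approached each other closely. Without background correction the medians were 1.69 for fibrillar, 1.59 for FACIT, 1.64 for multiplexin, 1.43 for network, 0.79 for type VI and 0.34 for type IV genes. With the authors' processed values they were 1.67, 1.58, 1.64, 1.43, 0.80 and 0.35 in the same order. The fibrillar median was thus close to those of FACIT and multiplexin genes in these settings, while type VI and type IV genes stayed lower. The network median includes Col8a2, whose probe was undetected in uninjured hearts. No test compares the types, since their genes were chosen with results of these data known and share arrays.

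**Figure D3:**
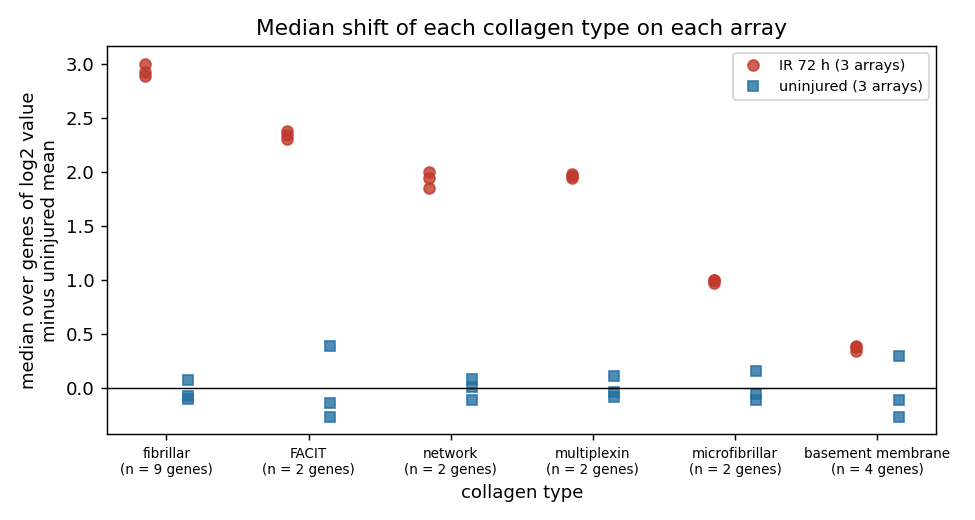
Median over the tested genes of each collagen type of the log2 level minus its uninjured mean (y axis), for each array, with IR arrays (circles) left of uninjured arrays (squares). IR arrays lie at 2.88 to 3.00 for fibrillar genes and at 0.34 to 0.39 for basement membrane genes, where uninjured arrays reach 0.30.

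Kept probes of a gene differed in size, while their direction was partly fixed by the filter. Of the 24 genes, 11 had several kept probes, and none of these 11 had kept probes of opposite sign. Some kept probes of Col5a2, Col24a1, Col27a1, Col18a1 and Col8a2 were undetected on all uninjured arrays. These probes passed the filter through IR arrays alone and could hardly show a fall, so their agreement in sign is no support. Probes that were not kept are left out of this count. Col8a2 ranged from 0.09 to 1.21, Col18a1 from 1.14 to 2.54 and Col5a2 from 1.96 to 3.11. Col3a1 ranged only from 3.56 to 3.68. Both Col1a1 and Col1a2 rest on a single probe each.

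**Figure D4:**
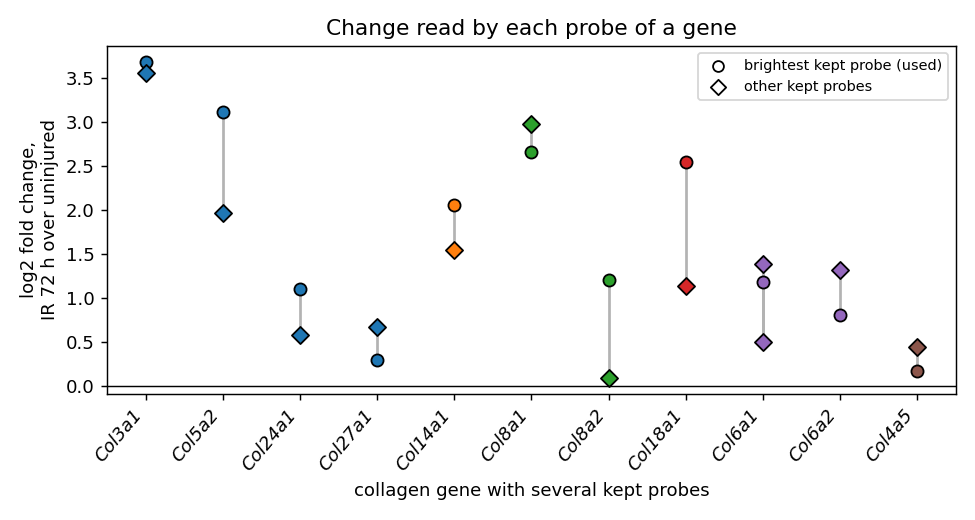
Log2 fold change of IR over uninjured hearts (y axis) read by each kept probe of the 11 collagen genes with several (x axis), with circles for the brightest probe, which was used, and diamonds for the others. Wide gaps are seen for Col18a1 (1.14 and 2.54), Col5a2 (1.96 and 3.11) and Col8a2 (0.09 and 1.21). All points are above 0, some of them from probes that passed the filter through IR arrays alone.

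Genes that fold, trim, crosslink, bind or cut collagen were taken from a list, of which 41 of 55 were tested. Of these 41, 37 rose and 2 fell, at a median log2 fold change of 1.29, against 39.4% higher, 34.5% lower and a median of 0.05 over all genes. Among folding and hydroxylation genes 15 of 18 rose, led by Serpinh1 (2.08 ± 0.09), the collagen chaperone HSP47, Ppib (1.97 ± 0.07), a prolyl isomerase of the endoplasmic reticulum, and Plod3 (1.93 ± 0.07), a lysyl hydroxylase, while P3h4 (-0.29) and Colgalt2 (-0.46) fell. Propeptide removal genes rose in 3 of 3 cases, with the procollagen C-proteinase Bmp1 at 2.08 ± 0.07, its enhancer Pcolce at 1.64 ± 0.10 and Pcolce2 at 0.69 ± 0.08. Crosslinking oxidases rose in 4 of 4 cases, with Lox at 5.99 ± 0.21, Loxl1 at 2.48 ± 0.09 and Loxl4 at 1.39 ± 0.18. Lox was detected on 1 of 3 uninjured arrays.

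Partners of fibril assembly rose in 5 of 6 cases, led by Fn1 (4.23 ± 0.11), which encodes fibronectin, Thbs2 (2.63 ± 0.09), which encodes thrombospondin, and Sparc (2.20 ± 0.15), a collagen-binding matricellular protein. Decorin (Dcn), a small proteoglycan on fibrils, had a log2 fold change of 0.01 and did not pass. Of receptors, 5 of 5 rose, among them the integrin chain Itga11 (2.11 ± 0.11), the leukocyte receptor Lair1 (1.87 ± 0.10) and the discoidin receptor Ddr1 (0.85 ± 0.09). Proteases that cut collagen rose in 5 of 5 cases, with Mmp14 at 3.73 ± 0.19, Ctsk (cathepsin K) at 2.73 ± 0.11 and Mmp9 at 2.66 ± 0.15, so transcripts for making and for cutting collagen were both higher. Among the named genes of this list that passed, the largest limma adjusted p was 0.0243, for Colgalt2. Of the 2 falls, P3h4 and Colgalt2, neither was called with all-probe median scaling, nor without IR array 886. In the deposited signal before normalization P3h4 was higher in IR hearts (252, 264 and 232) than in uninjured hearts (208, 207 and 198). The Colgalt2 signal was dim and overlapped, with 97.3, 102 and 92.7 in IR hearts and 92.1, 99.9 and 98.5 in uninjured hearts. These signals of P3h4 and Colgalt2 include the greater brightness of the IR arrays as a whole, given with Col11a2. They do not show the direction of either gene.

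The heart identity of the arrays was checked with cardiomyocyte genes: Myh6, Tnni3, Actc1, Myl2 and Nppa, 5 of the 6 listed (Tnnt2 had no probe), were detected on all 6 arrays, and their summed background-corrected intensity was 47193 to 50700 in IR and 53555 to 55657 in uninjured hearts. Within this sum Myh6 (log2 fold change -2.79), Tnni3 (-2.51) and Myl2 (-0.39) fell, Nppa (1.83) rose and Actc1 (0.04) did not pass. Myl2 had one value, 14.21, on all 3 uninjured arrays (SD 0), which Nppa also took on IR array 107. Quantile normalization assigns values by rank, so the size of the Myl2 fall and the sum may be limited by it. In the deposited signal Myl2 was 14191, 14359 and 13926 in IR hearts, against 20059, 22057 and 20533 in uninjured hearts. In whole tissue, fewer cells of a type and less RNA per cell cannot be told apart. Of 5 activated fibroblast markers, Cthrc1, Tnc, Acta2 and Fap rose beside the collagens. Postn passed the test at 0.32 but was undetected on all uninjured arrays and did not exceed the lowest detected value there, so no fold is given. The summed intensity of the 5 was 8941 to 9569 in IR hearts, against 2705 to 3132 in uninjured hearts. Most of this sum was Acta2, at mean log2 levels of 12.84 in IR and 11.48 in uninjured hearts. Of 7 general fibroblast markers 4 rose and 1 fell (11625 to 11884 in IR, against 9583 to 10085 in uninjured hearts). Most of that sum was Dcn, which did not pass. All 4 tested macrophage markers rose (12253 to 13378 in IR, against 1484 to 1750 in uninjured hearts), and all 3 neutrophil markers (2383 to 3763, against 18.7 to 54.3). Most of the macrophage sum was Lyz2, at mean log2 levels of 13.33 in IR and 10.14 in uninjured hearts. Beside the type IV genes, endothelial markers showed 1 rise and 1 fall among 4 (1647 to 1694 in IR, against 1565 to 1691 in uninjured hearts). Pericyte and smooth muscle markers showed 1 rise and 2 falls among 4, with sums of 343 to 377 in IR hearts, against 815 to 967 in uninjured hearts. Beside the cartilage collagens, Matn1, Matn3, Hapln1 and Chad had no kept probe, Comp rose and Acan did not pass (65.4 to 80.4 in IR, against 12.9 to 32.6 in uninjured hearts). Among skeletal muscle markers only Tnnt3 of 4 had a kept probe, and it rose (37.5 to 44.4, against 2.92 to 7.47). It was undetected on all uninjured arrays, so the latter values lie at background. By the bound used for Col24a1 it was at least 2.09-fold higher in IR hearts. The adipocyte markers Adipoq and Plin1 had no kept probe, the mesothelial marker Upk3b did not pass, and the Schwann cell marker Sox10 fell (-0.38). The part of these cell types in the collagen values was not tested. Between 18013 and 19243 probes were detected on IR arrays, against 15891 to 17843 on uninjured arrays.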

How the data were processed

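Total RNA was biotin-labelled for Illumina bead arrays, per the labels' protocols. GenomeStudio 2010.3 is named in the submitters' processing notes. The authors' signal table holds, per the file headers, an intensity and a detection p-value for 45281 probes on 6 arrays, and its deposited intensity values carry no background subtraction or normalization, as read from the values. The authors' processed table, linear intensity with a shared minimum and maximum in every column (medians 88.37 to 88.43), ranked probes as the signal columns did and was used as an alternative. Its direction and centring were read from this match, and how it was made is not given in the sources used here.

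R 4.3.3 with limma 3.58.1 and statmod 1.5.0 was used: neqc background correction from the detection p-values, offset 16, quantile normalization and log2. Probes with a detection p under 0.05 on at least 3 of 6 arrays were kept (18197). Gene symbols, from platform annotation of unknown age, were updated through Entrez identifiers to a RefSeq table of GRCm38.p6: 34885 probes had 1 symbol, 18 several and 10378 none. A gene took its brightest kept probe (10204 genes). Groups were compared with lmFit and eBayes without a block, adjusted by Benjamini-Hochberg over all genes at 0.05. The number of arrays limits precision. The steps were tested on simulated data. Alternatives changed the background correction, scaling, filter, probe choice, starting values, test and arrays. Every collagen gene was named, with the 3 most changed genes of each processing sublist. Collagens, types, lists and pairs of chains were chosen with earlier results of these data known. Probes of related chains can bind each other's transcripts.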

Additional observations from a re-analysis of the deposited data

How the results depend on the processing

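The count of collagen genes called higher was 12 to 19 over all alternatives, against 17. Col1a1, Col1a2, Col3a1, Col5a1, Col16a1, Col8a1, Col18a1, Col15a1, Col6a1, Col6a2, Col4a1, Col5a2, Col14a1, Col8a2, Col24a1 and Col4a4 kept their direction and call under each alternative that tested them. For Col8a2, Col24a1 and Col4a4 the direction was partly fixed by the detection filter. Medians are given in log2. Without background correction the medians were 1.69 for fibrillar, 1.59 for FACIT, 1.43 for network, 0.79 for type VI and 1.64 for multiplexin genes. The authors' processed values gave 1.67, 1.58, 1.43, 0.80 and 1.64 for these types, and the same with the replicate number as a block. An offset of 50 gave 2.13 for fibrillar, 1.85 for FACIT, 1.57 for network and 1.79 for multiplexin genes. All-probe median scaling gave 3.38 for fibrillar, 0.86 for type IV, 2.83 for FACIT, 2.33 for network, 1.55 for type VI and 2.54 for multiplexin genes, with 6098 of all genes higher and 1775 lower (4022 and 3523 in the reported fit), 1 collagen lower and 0 processing genes lower. Scaling to the kept probes gave 2.72 for fibrillar and 1.67 for network genes, 5 collagens lower and 4 processing genes lower, with Col7a1 at -0.023 and Col27a1 at -0.14. With no filter, which adds undetected genes, medians were 1.11 for fibrillar (11 genes), 0.043 for type IV, 0.036 for FACIT, 1.21 for network and -0.0064 for type VI genes. Detection on all 6 arrays left 13 collagens, 12 changed and 0 lower, medians of 3.77 for fibrillar and 2.66 for network genes and 1 processing gene lower. The mean of a gene's probes gave 2.53 for fibrillar, 1.73 for network and 1.61 for multiplexin genes and 1 processing gene lower. The arrays numbered 106 to 110 alone gave 0 processing genes lower. Leaving out 1 array gave 1 to 3 collagens lower, 0 to 2 processing genes lower and Col5a3 at -0.30 to 0.042. Col5a3 was 0.057 under scaling to all probes. Where not shown by fewer genes or arrays, the cause was not tested.

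The labels' replicate numbers stand only on the authors' processed columns. Deviations of same-numbered samples correlated at -0.07 to -0.01 across genes, so the numbers do not pair the samples. With the replicate block 19 collagens changed, as without it, and 7438 of all genes in place of 7534. Signals near the detection level limit what can be said of Col5a3, Col11a2, Col24a1, Col27a1, Col4a4, Col8a2, Col7a1, Col17a1 and Col26a1.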

Other observations

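Uninjured hearts spread more than IR hearts in collagen levels. The SD was larger among uninjured than among IR arrays in 19 of 24 collagen genes (79.2%), and in 65.4% of all genes tested. The median SD was 0.08 in IR hearts and 0.20 in uninjured hearts over the collagens, and 0.08 and 0.12 over all genes. Uninjured array 110 held the highest of the 3 uninjured values in 17 of the 24 collagens, and in 37.2% of all genes. Without this array the fibrillar median was 2.99 and the type IV median 0.48, and 21 collagens changed. This pattern was noticed after the values were seen, and its cause was not tested.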
